A study of Homo sapiens with 6 samples.

Results

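The 49 genes described here encode the ligands, receptors and regulators of WNT signalling. They were taken by symbol from the platform annotation: every WNT, FZD, DKK or SFRP gene with a number, together with LRP5, LRP6, AXIN1, AXIN2, APC, CTNNB1, TCF7, TCF7L1, TCF7L2, LEF1, RNF43, ZNRF3, NKD1, NKD2, PORCN and WLS. The rule names 53 genes, and 49 of them were found among the 17687 genes measured, each with 1 probe set. FZD8, PORCN, TCF7 and WNT9B were not matched to a probe set and are not analysed here. The rule uses symbols and no measured value, although the gene families were chosen with earlier results of these data known.

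Expression was measured with 6 Affymetrix whole-transcript arrays in SH-SY5Y, an established human neuroblastoma line derived from the sympathetic nervous system that retinoic acid turns towards a neuronal form. The 3 arrays labelled 15EN and the 3 arrays of the vehicle control (VC) hold cells of passages 33, 34 and 35 by their titles and source names, with 1 array of each group at each passage, whereas the description of every array names passage 33. The titles were followed here. The treatment text, the same for both groups, names the differentiation agent atRA, a time of 96 h and a bioactive compound at 15 µM, and eurycomanone is the compound in the series title. What 15EN stands for is not spelled out. Beyond the passages, no label says that the arrays of a group hold separately kept and treated cultures, so a p-value reflects the spread among these arrays, part of which may be technical. A single cell line was used.

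WNT proteins are secreted, lipid-modified ligands. In the β-catenin branch a ligand joins a frizzled receptor to LRP5 or LRP6, which stops the complex of APC and axin from marking β-catenin for destruction, and β-catenin then acts with TCF and LEF factors on target genes. Most secreted DKK proteins bind the LRP co-receptors, and SFRP proteins bind the ligands. DKK3 has little action on LRP6 and is counted with the DKK antagonists here by its name. Several targets of the pathway, among them AXIN2, NKD1, RNF43 and ZNRF3, feed back to dampen it. WNT signalling patterns the neural crest, from which the sympathetic lineage arises, and other branches of it that do not use β-catenin guide cell polarity and axon growth.

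Values are log2 signals, so a difference of 1 is a change of 2-fold, and a difference is 15EN minus VC throughout. A gene is said to have risen or fallen when its adjusted p from limma was below 0.05. Signals of different genes come from different probes and are not compared with each other. A gene is dim on an array where it lay below the signal that 90% of the 612 negative control probe sets did not exceed. This signal was lower on the 15EN arrays (7.41 to 7.51) than on the VC arrays (7.55 to 7.99). The median of these controls was also lower, at 4.75 to 4.86 in 15EN against 4.97 to 5.06 in VC. The part of this background in small differences of dim genes was not tested. Of all genes, 44% were dim on all 6 arrays. Whether dim genes were expressed was not tested, so dim names a level here and neither presence nor absence.

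The arrays of a group correlated at Pearson's r of 0.979 or more over all probe sets, and 15EN replicate 3 was the array least like the others of its group (0.979 and 0.980). The hybridization controls were dimmer in 15EN (means of 10.31 to 10.60) than in VC (11.22 to 11.37). Scaling the arrays to these controls moved the median difference of all genes from 0.01 to 0.88 and the split of calls from 57.5% higher (2179 against 1608 lower genes) to 96.5% higher (12150 against 437), so directions here are relative to the median gene. Of 13 sympathetic neuroblastoma markers measured, 10 were above the negative controls on all VC arrays, among them HAND2, GATA3 and TBX2, while TH and CHGA were dim on all 6 arrays. In 15EN, 0 of these 13 markers were higher and 7 lower, and their mean signal was 10.61 to 10.74 against 11.36 to 11.51 in VC. Substrate-adherent neuroblastoma markers went both ways (3 higher and 3 lower of 12; mean signal 10.90 to 11.49 in 15EN and 10.87 to 11.27 in VC). Fibroblast markers had 0 higher and 2 lower of 9 (8.60 to 9.19 in 15EN and 9.05 to 9.43 in VC). On all VC arrays 5 of the 9 were above the negative controls, as were 5 on all 15EN arrays. PDGFRA, PDGFRB, THY1, DCN and COL1A2 were above them on all 6 arrays, while POSTN and FAP were dim on all 6. Markers of Schwann cells and glia had 0 higher and 0 lower of 8 by limma, with 1 at an unadjusted p below 0.05. Their mean signal was 5.06 to 5.28 in 15EN and 5.23 to 5.34 in VC. Of the 8, 7 were dim on all 6 arrays, with SOX10 and S100B among them, and NGFR was above the negative controls on all 6. By list in this order, 53.8%, 50%, 22.2% and 0% of the markers were called, against 21.4% of all genes. The part of these cell states in the results on WNT genes was not tested. In such bulk samples fewer cells of a type and less RNA per cell cannot be told apart.

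The members that passed the test encode receptors, co-receptors and secreted proteins. The frizzled receptor gene FZD4, both co-receptor genes LRP5 and LRP6, and the genes of the secreted antagonists SFRP1, DKK3 and DKK2 fell, as did FZD1, FZD2 and WNT2B, while FZD6 and SFRP4 rose. Of the 11 members that are feedback regulators (4), destruction complex genes (3), β-catenin or TCF and LEF factors (3), 0 passed the test by limma, and 3 of them had an unadjusted p below 0.05. Whether the roles differ from each other was not tested. In all 2 members rose and 9 fell, 22.4% of the 49, where 21.4% of all genes were called (12.3% higher and 9.09% lower). Over both directions the share of called members was close to that of all genes. By direction, 4.08% of the members were higher and 18.4% lower, a description that was not tested. Without VC replicate 2, 1 member was higher and 8 were lower (18.4% called), where 12.8% of all genes were called. The median difference was -0.25 over the members and 0.01 over all genes, and 33 of 49 members had a negative difference, as had 8627 of 17687 genes. On all 6 arrays 26 of the members were dim (53.1%, against 44% of all genes). The groups did not overlap for 19 members (38.8%, against 36.3% of all genes), which include all 11 called members.

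**Figure D1:**
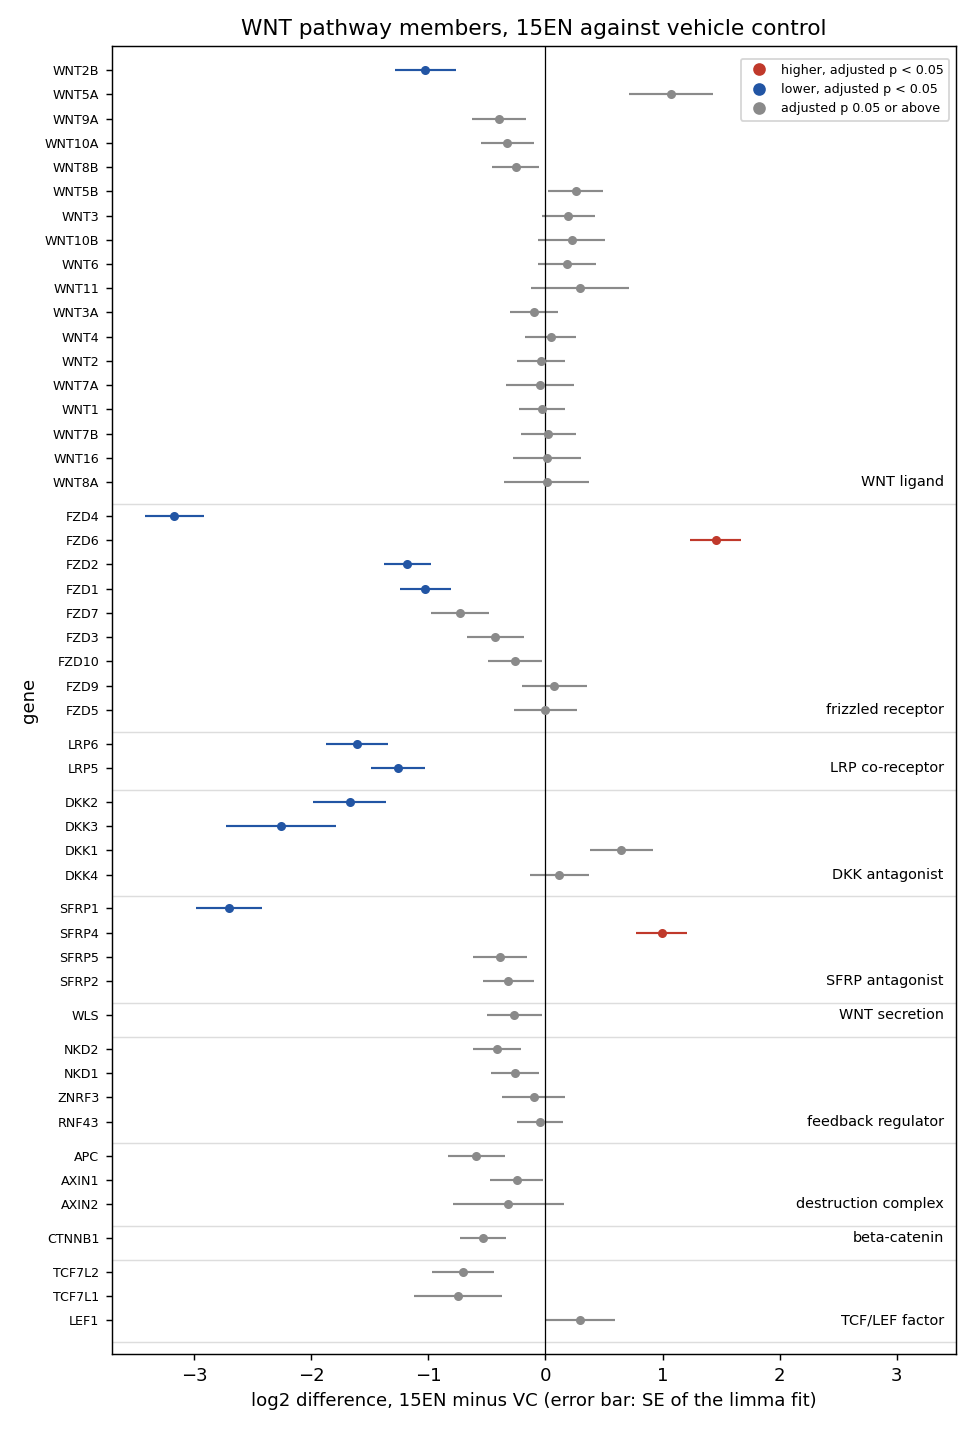
Log2 difference, 15EN minus VC, of each of the 49 members on the horizontal axis, grouped by role, with the standard error of the limma fit as the bar; red and blue points are higher and lower at adjusted p below 0.05. The called members lie among receptors, co-receptors and secreted antagonists, from -3.17 (FZD4) to 1.45 (FZD6), with WNT2B as the called ligand.

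Among the 18 WNT ligands, 0 rose and 1 fell (5.56% called, against 21.4% of all genes), and 17 were dim on all 6 arrays. The median difference of the ligands was 0.01, and 16 of them differed by less than 0.5 in either direction. WNT2B, a ligand of the β-catenin branch, was at 4.40, 5.07 and 5.00 on the 15EN arrays (replicates 1 to 3) and 5.61, 6.20 and 5.73 on the VC arrays. Every VC array was above every 15EN array, at levels that were dim in both groups, and the difference was -1.02 ± 0.26 (SE, adjusted p = 0.0181). The size of this fall is therefore uncertain. Its call was lost without 15EN replicate 1 (-0.81, adjusted p = 0.0694), without VC replicate 2 (-0.85, 0.0909) or without VC replicate 3 (-1.08, 0.0519).

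WNT5A, the main ligand of signalling without β-catenin, was the one ligand above the negative controls on every array. Its signal was 9.00, 9.78 and 10.39 on the 15EN arrays (replicates 1 to 3) and 8.13, 8.80 and 9.03 on the VC arrays. The groups overlapped, since VC replicate 3 was slightly above 15EN replicate 1, but 15EN was higher at each passage, by 0.87, 0.98 and 1.36 at passages 33, 34 and 35. The difference of 1.07 ± 0.36 (SE, adjusted p = 0.0583) missed the threshold, and with the replicate number as a block in the model, which compares the arrays within each passage, it passed (adjusted p = 0.00676). It also passed without 15EN replicate 1 (1.43, adjusted p = 0.0182) and with the filter on dim genes (adjusted p = 0.0455). Scaled to the hybridization controls it stood at 1.94 (adjusted p = 0.00168), with the median gene at 0.88. Under the other alternatives run WNT5A did not pass. WNT5B, a close relative of WNT5A, was dim and differed by 0.26. The ligand WNT11 was at 3.94 to 4.16 on 15EN replicates 1 and 2 and at 5.76 on 15EN replicate 3, and WNT8A and WNT10B were also highest on that array (6.83 and 6.38). These 3 ligands were dim on all 6 arrays and did not pass. The remaining 12 ligands (WNT1, WNT2, WNT3, WNT3A, WNT4, WNT6, WNT7A, WNT7B, WNT8B, WNT9A, WNT10A and WNT16) differed by -0.40 (WNT9A) to 0.20 (WNT3), all dim and none called. WLS, the carrier that takes lipid-modified WNT proteins to the cell surface, was above the negative controls on all arrays and did not pass, at 11.17, 11.21 and 11.31 in 15EN against 11.13, 11.51 and 11.84 in VC (-0.27, 95% interval -0.78 to 0.25).

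Of the 9 frizzled receptors measured, 1 rose, 3 fell and 5 did not pass (44.4% called, against 21.4% of all genes). FZD4, which also serves as the receptor of the non-WNT ligand Norrin, was at 8.47, 7.97 and 8.69 on the 15EN arrays (replicates 1 to 3) and 11.39, 11.43 and 11.82 on the VC arrays. The VC arrays were all more than 2 units above the highest 15EN array, and the difference of -3.17 ± 0.25 (SE, adjusted p = 0.000114) is a signal 8.99-fold lower in 15EN. FZD6, often tied to planar cell polarity, went the other way, at 9.98, 10.14 and 10.11 on the 15EN arrays (replicates 1 to 3) and 8.37, 8.87 and 8.64 on the VC arrays. All 15EN arrays lay above all VC arrays, with a difference of 1.45 ± 0.21 (SE, adjusted p = 0.00132), or 2.74-fold higher. Both calls held without any 1 array, and FZD4 differed by -2.30 and FZD6 by 2.32 when arrays were scaled to the hybridization controls, where the median gene stood at 0.88.

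FZD1, FZD2 and FZD7 form one close subfamily of frizzled receptors, and their sequences resemble each other, so probes that read more than 1 of them cannot be told apart from the values. FZD1 was at 11.60, 11.71 and 11.53 in 15EN against 12.95, 12.49 and 12.48 in VC for replicates 1 to 3 and fell by 1.03 ± 0.22 (SE, adjusted p = 0.00774). FZD2 was at 7.04, 7.02 and 6.89 in 15EN against 8.05, 8.10 and 8.33 in VC and fell by 1.18 ± 0.20 (SE, adjusted p = 0.00271), to a level that was dim on all 3 15EN arrays. In both genes the groups did not overlap and the 15EN arrays lay within 0.2 of each other. FZD7 was at 9.28, 9.47 and 9.97 in 15EN against 10.25, 10.10 and 10.55 in VC, also without overlap, but its difference of -0.73 ± 0.25 (SE, adjusted p = 0.0599) missed the threshold. It passed with the replicate block (adjusted p = 0.0359) and also without 15EN replicate 3 (-0.93, adjusted p = 0.00818). Scaled to the hybridization controls, FZD1 (-0.16) and FZD2 (-0.31) kept a negative difference and no longer passed against 0. FZD3, a receptor of axon guidance, was above the negative controls on all arrays and differed by -0.43 ± 0.24 (SE, adjusted p = 0.263), with 8.70, 8.10 and 8.84 in 15EN against 8.96, 9.08 and 8.89 in VC. FZD5, FZD9 and FZD10 were dim on all 6 arrays and differed by 0.00, 0.08 and -0.26.

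Both LRP co-receptors, which pass the signal of the ligand and frizzled pair on to the destruction complex, fell. LRP6 was at 9.03, 8.93 and 9.68 on the 15EN arrays (replicates 1 to 3) and 11.05, 10.93 and 10.49 on the VC arrays. All 15EN arrays were below all VC arrays, with 15EN replicate 3 the highest of its group, and the difference was -1.61 ± 0.26 (SE, adjusted p = 0.00224), or 3.05-fold lower. LRP5 was at 8.21, 8.37 and 8.23 on the 15EN arrays (replicates 1 to 3) and 9.29, 9.93 and 9.37 on the VC arrays. Its 15EN arrays lay within 0.2 of each other, and VC replicate 2 was the highest array, for a difference of -1.26 ± 0.23 (SE, adjusted p = 0.00398), or 2.40-fold lower. Both calls held without any 1 array. After scaling to the hybridization controls LRP6 still passed (-0.74, adjusted p = 0.0389), while LRP5 did not (-0.39, adjusted p = 0.173). Together with FZD4 they make up the receptor and co-receptors that Norrin and several WNT ligands use.

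**Figure D2:**
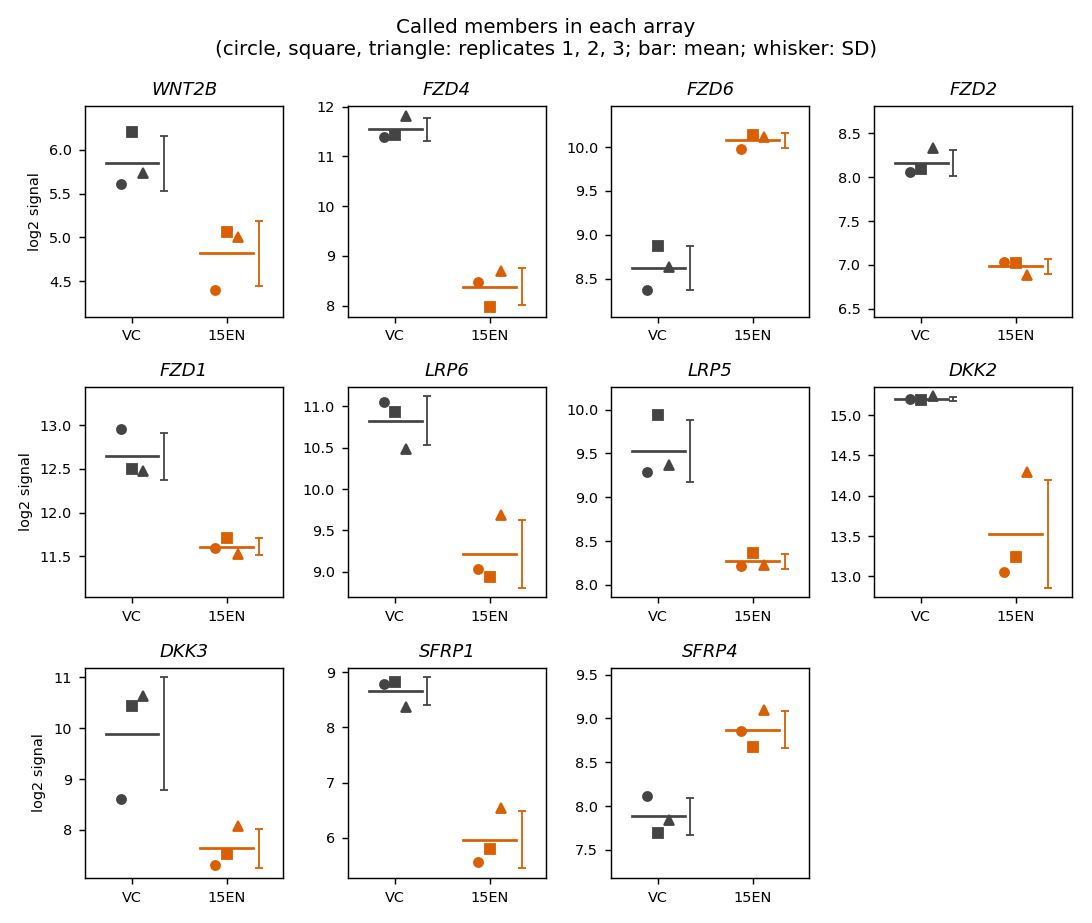
Log2 signal on the vertical axis of the 11 called members on each array, VC at the left and 15EN at the right of each panel, with group mean (bar) and SD over 3 arrays (whisker); panels have their own vertical ranges. The groups do not overlap in any of the 11 panels, and DKK3 has VC replicate 1 (8.61) well below the other VC arrays.

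The promoters of called receptors and of the called antagonist SFRP4 are shown because these genes passed the test, FZD4, LRP5 and FZD1 lower and SFRP4 higher, and have a RefSeq window. Each line holds the 250 bases before a RefSeq start of the gene (GRCh38.p14), read 5′ to 3′ on the strand of the gene. Every GC box (GGGCGG or, on the other strand, CCGCCC) is in capitals. For LRP5 this start lies inside the RefSeq span of the gene and not at its edge.
FZD4, chr11:86955396-86955645, - strand: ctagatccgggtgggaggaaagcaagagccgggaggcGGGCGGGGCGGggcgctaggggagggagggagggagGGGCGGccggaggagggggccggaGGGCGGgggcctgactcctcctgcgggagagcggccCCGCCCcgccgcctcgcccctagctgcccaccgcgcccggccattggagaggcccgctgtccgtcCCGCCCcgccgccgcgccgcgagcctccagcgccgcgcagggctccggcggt
LRP5, chr11:68312341-68312590, + strand: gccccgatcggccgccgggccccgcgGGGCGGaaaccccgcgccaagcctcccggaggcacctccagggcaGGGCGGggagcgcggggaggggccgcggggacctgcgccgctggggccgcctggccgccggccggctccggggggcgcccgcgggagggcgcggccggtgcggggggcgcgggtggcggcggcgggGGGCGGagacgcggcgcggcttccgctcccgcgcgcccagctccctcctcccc
FZD1, chr7:91264183-91264432, + strand: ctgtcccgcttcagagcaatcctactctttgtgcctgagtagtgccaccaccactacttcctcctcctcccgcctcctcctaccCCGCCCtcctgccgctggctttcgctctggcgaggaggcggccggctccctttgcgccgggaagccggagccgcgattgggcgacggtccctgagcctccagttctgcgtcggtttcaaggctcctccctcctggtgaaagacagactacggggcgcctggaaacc
SFRP4, chr7:37916818-37917067, - strand: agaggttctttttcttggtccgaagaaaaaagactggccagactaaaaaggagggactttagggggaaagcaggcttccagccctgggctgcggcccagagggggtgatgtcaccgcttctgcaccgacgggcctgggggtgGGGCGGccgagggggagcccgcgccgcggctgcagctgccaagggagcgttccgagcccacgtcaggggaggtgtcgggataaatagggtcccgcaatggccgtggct
RefSeq windows were matched for 33 of the 49 members (41 windows) and for 5 of the 11 called ones, of which WNT2B, dim in both groups, is not shown. The FZD4 window holds 6 GC boxes, counted with overlaps, that of LRP5 holds 3, and those of FZD1 and SFRP4 hold 1 each. GC boxes stood in 29 of the 41 member windows and in 42.5% of all 34943 windows of this length. The TCF and LEF motif CTTTGAT, searched on both strands, was in 0 of the 41 member windows and in 2.27% of all windows, and the related CTTTGAA was in 1, that of DKK1, and in 3.81% of all windows. These are matches of letters in a short window and not measured binding sites.

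Of the 8 secreted antagonists of the DKK and SFRP families, 1 rose, 3 fell and 4 did not pass. This is 50% called, against 21.4% of all genes, and the difference between these shares was not tested. SFRP1, which binds WNT ligands outside the cell, was at 5.55, 5.79 and 6.54 on the 15EN arrays (replicates 1 to 3) and 8.78, 8.83 and 8.37 on the VC arrays. It was above the negative controls on all VC arrays and dim on all 15EN arrays, without overlap, so the size of its difference, -2.70 ± 0.28 (SE, adjusted p = 0.000289), is uncertain. SFRP4, of the same family, rose by 0.99 ± 0.22 (SE, adjusted p = 0.00985), with 8.86, 8.67 and 9.09 in 15EN against 8.11, 7.70 and 7.84 in VC. Its groups did not overlap either, and its call was lost without VC replicate 2 (0.90, adjusted p = 0.0556). SFRP2 and SFRP5 were dim on all 6 arrays and differed by -0.32 and -0.39.

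DKK2, which binds LRP5 and LRP6, was at 13.06, 13.24 and 14.29 on the 15EN arrays (replicates 1 to 3) and 15.20, 15.18 and 15.23 on the VC arrays. The VC arrays lay within 0.1 of each other, and 15EN replicate 3 came closest to them, so that the difference was -1.67 ± 0.31 (SE, adjusted p = 0.00398) over all arrays and -2.06 without that array. DKK3, a member of the family with little action on LRP6, was at 7.31, 7.52 and 8.07 on the 15EN arrays (replicates 1 to 3) and 8.61, 10.44 and 10.63 on the VC arrays. The gene was dim on 15EN replicate 1. Its VC arrays were far apart, with VC replicate 1 nearer to the highest 15EN array than to the other VC arrays, and the difference of -2.26 ± 0.47 (SE, adjusted p = 0.00684) became -2.90 without VC replicate 1. DKK1, a target of β-catenin as well as an LRP6 antagonist, did not follow them, at 12.82, 12.18 and 12.88 in 15EN against 12.35, 11.92 and 11.67 in VC. Its difference of 0.65 ± 0.27 (SE, adjusted p = 0.12) was positive at each passage, did not pass, and had overlapping groups. DKK4 was dim and differed by 0.12. After scaling to the hybridization controls SFRP1 (-1.83), DKK3 (-1.39) and SFRP4 (1.86) still passed, and DKK2 did not (-0.80, adjusted p = 0.0547).

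**Figure D3:**
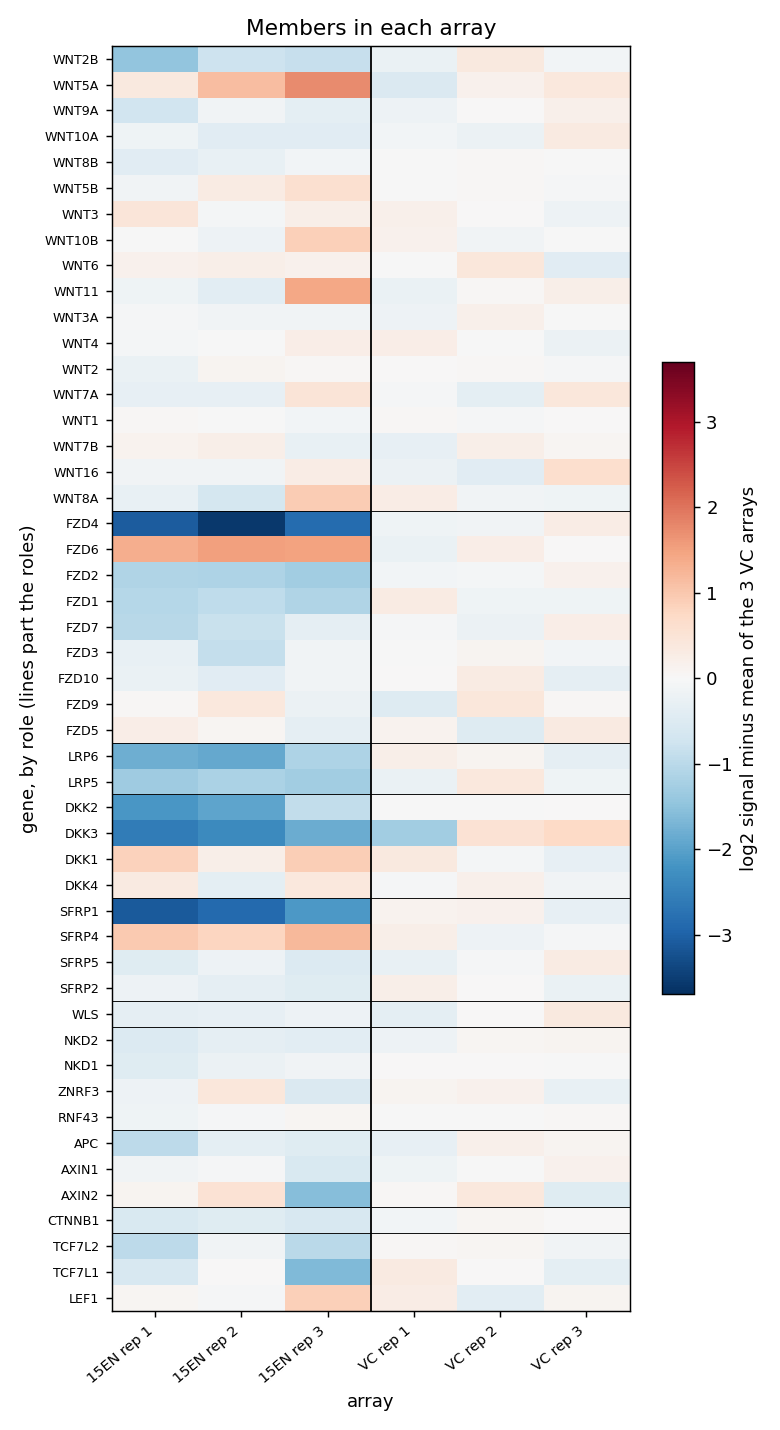
Log2 signal of each member (rows, by role) on each array (columns) minus the mean of its 3 VC arrays, from blue (lower) to red (higher). FZD4 and SFRP1 are the darkest blue rows on all 15EN arrays, and 15EN replicate 3 shows paler falls in LRP6, DKK2 and SFRP1 than the other two 15EN arrays.

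Among β-catenin, its destruction complex, the TCF and LEF factors and the feedback regulators, 10 of 11 members had a negative difference. Over all genes 8627 of 17687 had one. Of the 11 members 0 passed the test, where 21.4% of all genes did, and whether these shares differ was not tested. CTNNB1, the gene of β-catenin, was at 14.65, 14.76 and 14.60 on the 15EN arrays (replicates 1 to 3) and 15.12, 15.29 and 15.21 on the VC arrays. The groups did not overlap and each lay within 0.2 of its mean, but the difference was small, -0.53 ± 0.20 (SE, adjusted p = 0.0831), or 1.45-fold lower in 15EN. It passed with a trended robust prior (adjusted p = 0.0311) and once a trend with brightness was removed (-0.60, adjusted p = 0.0487). APC, the scaffold of the destruction complex, showed a difference of like size, -0.59 ± 0.24 (SE, adjusted p = 0.12), with 13.82, 14.44 and 14.34 in 15EN against 14.50, 14.98 and 14.90 in VC and no overlap. AXIN1, the other scaffold, was at 9.05, 9.14 and 8.62 in 15EN against 9.02, 9.18 and 9.35 in VC, with overlap and a difference of -0.25 ± 0.22 (SE, adjusted p = 0.52).

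AXIN2, a widely used target gene of β-catenin signalling, was at 7.03, 7.47 and 5.35 on the 15EN arrays (replicates 1 to 3) and 6.99, 7.33 and 6.48 on the VC arrays. It was dim on 5 of the 6 arrays. The groups overlapped, since 15EN replicates 1 and 2 lay within or above the range of the VC arrays and 15EN replicate 3 was the lowest array. Its difference was -0.32 ± 0.47 (SE, adjusted p = 0.717) with a 95% interval of -1.37 to 0.73, which spans a change of 2-fold lower, and it was 0.31 without 15EN replicate 3. TCF7L1 and LEF1 were also farthest from the other arrays on 15EN replicate 3. TCF7L1, mostly a repressor, was at 7.76, 8.37 and 6.73 in 15EN against 8.69, 8.39 and 8.01 in VC, a difference of -0.74 ± 0.38 (SE, adjusted p = 0.208). LEF1 was at 6.99, 6.87 and 7.81 in 15EN against 7.20, 6.54 and 7.02 in VC, a difference of 0.30 ± 0.29 (SE, adjusted p = 0.554), and was dim on 5 of the 6 arrays. TCF7L2 was at 7.95, 8.79 and 7.93 in 15EN against 8.98, 9.00 and 8.81 in VC, without overlap, and its difference of -0.70 ± 0.26 (SE, adjusted p = 0.0876) missed the threshold and passed without 15EN replicate 2 (-0.99, adjusted p = 0.0202).

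The 4 feedback regulators differed by -0.41 to -0.05. ZNRF3, a membrane ubiquitin ligase that removes frizzled receptors, was the one of them above the negative controls on all arrays, at 8.22, 8.82 and 7.87 in 15EN against 8.50, 8.56 and 8.14 in VC, with overlap (-0.10, 95% interval -0.70 to 0.50). Its relative RNF43 was dim, at 4.70, 4.80 and 4.92 in 15EN against 4.84, 4.84 and 4.88 in VC (-0.05, interval -0.48 to 0.39). NKD1, which binds dishevelled proteins, was dim at 6.10, 6.33 and 6.42 in 15EN against 6.56, 6.55 and 6.53 in VC, and NKD2 at 6.14, 6.34 and 6.25 in 15EN against 6.47, 6.72 and 6.77 in VC. In NKD1 (-0.26, interval -0.71 to 0.19) and NKD2 (-0.41, interval -0.86 to 0.04) the VC arrays were all above the 15EN arrays, and neither gene passed. Both were dim, and the negative controls were lower in 15EN as well.

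**Figure D4:**
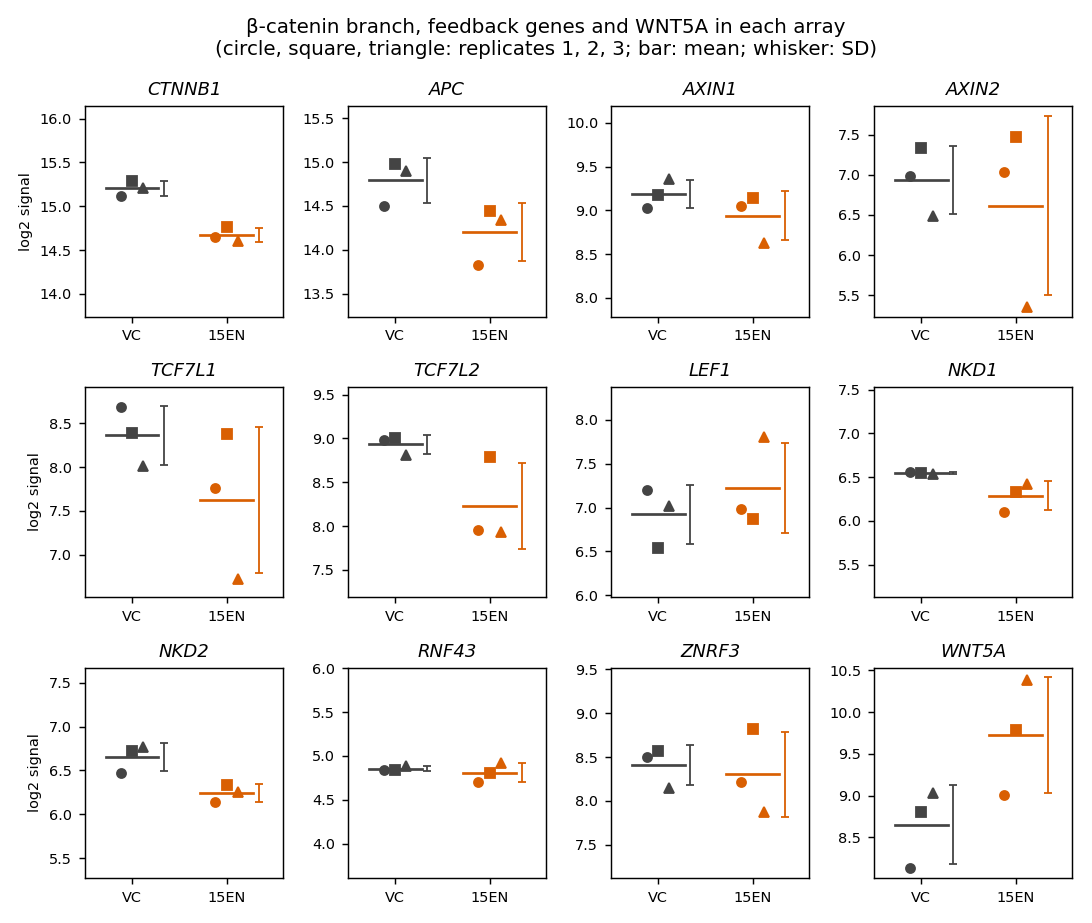
Log2 signal on the vertical axis of β-catenin, the destruction complex genes, the TCF and LEF factors, the feedback regulators and the ligand WNT5A on each array, VC at the left and 15EN at the right, with group mean (bar) and SD over 3 arrays (whisker); panels have their own vertical ranges. None of these 12 genes passed the test, and the 15EN arrays of AXIN2 spread from 5.35 to 7.47.

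The other genes of the pathway were taken from 6 lists of 87 genes that are not members, 79 of them measured. Of these 79, 8 rose and 11 fell, 24.1% against 21.4% of all genes, with a median difference of -0.22 (0.01 over all genes). The count of higher genes in these lists dropped to 3 when 15EN replicate 2 was left out and to 4 when any single VC array was. Next to the receptors, 1 of 7 R-spondin genes and their receptors was lower and 0 higher (14.3% called). LGR4, through which R-spondins protect frizzled receptors from ZNRF3 and RNF43, was at 6.92, 7.44 and 8.14 in 15EN against 9.65, 9.42 and 8.79 in VC, without overlap, and fell by 1.79 ± 0.33 (SE, adjusted p = 0.00422). It was dim on 15EN replicate 1. Of 11 further extracellular antagonists 2 were lower and 0 higher (18.2% called). All 11 had negative differences, 9 of them dim on all 6 arrays, and the negative controls were also lower in 15EN. FRZB, a relative of the SFRP genes, fell by 1.64 ± 0.27 (SE, adjusted p = 0.00229) to dim levels in 15EN, and KREMEN1, the partner of DKK proteins at the cell surface, fell by 1.08 ± 0.34 (SE, adjusted p = 0.0488). The KREMEN1 call was lost without 15EN 1, VC 1, VC 2 or VC 3 (adjusted p = 0.0709 to 0.187). KREMEN1 was also dim on 15EN replicate 1.

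Genes of signalling without β-catenin and of planar polarity split, with 2 higher and 2 lower of 13 and a median of -0.44. Of this list 30.8% were called, against 21.4% of all genes. ROR1, a receptor of WNT5A, was at 15.76, 16.00 and 15.48 in 15EN against 14.79, 14.19 and 14.05 in VC and rose by 1.40 ± 0.26 (SE, adjusted p = 0.00386). DAAM1, a formin that links dishevelled to actin, rose by 0.73 ± 0.20 (SE, adjusted p = 0.0257), a call that was lost without 15EN 2, VC 1, VC 2 or VC 3 (adjusted p = 0.0669 to 0.0962). PTK7, a co-receptor of planar polarity, fell by 1.62 ± 0.23 (SE, adjusted p = 0.00119), and ANKRD6, the human form of Diversin, fell by 1.74 ± 0.33 (SE, adjusted p = 0.00485). The groups did not overlap in any of these 4 genes.

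In the destruction complex, its kinases and dishevelled, 2 of 13 were higher and 1 lower, with a median of 0.00. The share called, 23.1%, was close to the 21.4% of all genes. CSNK1G2, a kinase that can phosphorylate LRP6, fell by 1.95 ± 0.30 (SE, adjusted p = 0.00147) to dim levels. TNKS2, a tankyrase that marks axin for destruction, rose by 1.10 ± 0.26 (SE, adjusted p = 0.0137), and CSNK1D, a casein kinase, by 0.83 ± 0.20 (SE, adjusted p = 0.0146). TNKS2 lost its call without 15EN 2, VC 1 or VC 3 (adjusted p = 0.0549 to 0.0632), and CSNK1D without 15EN 2, VC 1, VC 2 or VC 3 (adjusted p = 0.0506 to 0.0582). The kinase GSK3B, chosen after its value was seen, differed by -0.56 ± 0.20 (SE, adjusted p = 0.0725), with 12.92, 13.00 and 13.16 in 15EN against 13.55, 13.62 and 13.58 in VC, without overlap. It passed as lower without 15EN replicate 3 (-0.62, adjusted p = 0.0326), and also under quantile normalization (0.0367), removal of the brightness trend (0.0313), a trended robust prior (0.0402) and array weights (0.0255). Scaled to the hybridization controls it stood at 0.31, below the median gene at 0.88. Of 17 nuclear cofactors 2 were higher and 3 lower (29.4% called), with a median of -0.26. BCL9, which ties β-catenin to PYGO proteins, fell by 1.55 ± 0.27 (SE, adjusted p = 0.00327), TBL1X fell by 1.74 ± 0.31 (SE, adjusted p = 0.00323) and the corepressor CTBP1 fell by 1.10 ± 0.27 (SE, adjusted p = 0.0149). CREBBP, a histone acetylase that β-catenin recruits, rose by 1.10 ± 0.21 (SE, adjusted p = 0.00449). The other higher gene, the corepressor TLE4, named because the count is small, differed by 0.88 ± 0.23 (SE, adjusted p = 0.0214). The CTBP1 call was lost without 15EN 1, 15EN 2, VC 1 or VC 2 (adjusted p = 0.0521 to 0.067), and that of TLE4 without 15EN 1, 15EN 2, VC 2 or VC 3 (adjusted p = 0.0623 to 0.0987).

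Of 18 TCF target genes outside the members, 2 were higher and 2 lower, with a median of -0.07. The share called, 22.2%, was close to the 21.4% of all genes. CCND1, which encodes cyclin D1, was at 11.60, 12.21 and 12.76 in 15EN against 14.14, 14.14 and 14.08 in VC and fell by 1.93 ± 0.28 (SE, adjusted p = 0.00131), and CD24, a surface glycoprotein, fell by 2.72 ± 0.32 (SE, adjusted p = 0.000426). MSX2, a homeobox gene of the neural crest, was at 11.13, 10.92 and 9.74 in 15EN against 8.62, 8.38 and 8.22 in VC and rose by 2.19 ± 0.34 (SE, adjusted p = 0.00166), and SOX9, also a neural crest gene, rose by 1.52 ± 0.39 (SE, adjusted p = 0.0203). The SOX9 call was lost without 15EN 2, VC 1 or VC 2 (adjusted p = 0.0633 to 0.0879). All 4 have regulators other than β-catenin. MYC, again chosen after its value was seen, differed by 0.70 ± 0.36 (SE, adjusted p = 0.213), with 8.39, 9.80 and 8.33 in 15EN against 8.03, 8.06 and 8.30 in VC, of which 15EN replicate 2 was the highest.

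**Figure D5:**
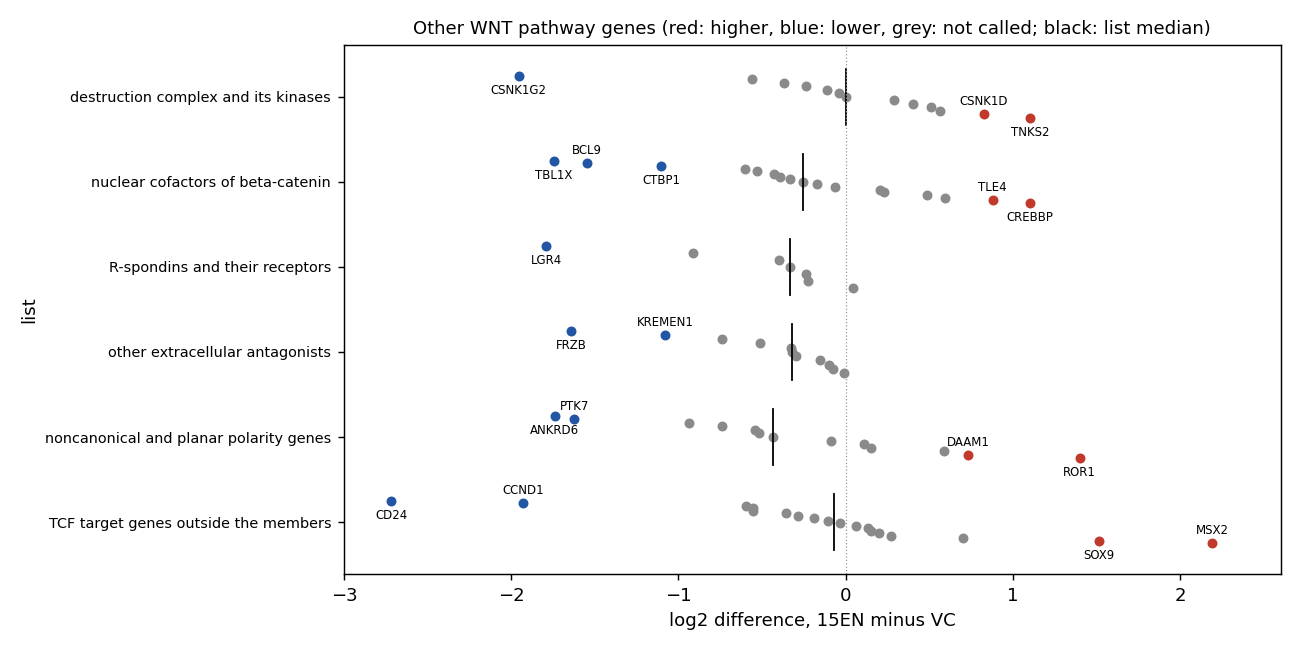
Log2 difference, 15EN minus VC, on the horizontal axis for each measured gene of 6 pathway lists that is no member (points, red higher and blue lower at adjusted p below 0.05, grey not called), with the list median as a black line. Called genes lie on both sides of 0 in 4 of the 6 lists, and the R-spondin and extracellular antagonist lists hold only lower calls by limma.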

How the data were processed

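The deposited values are log2 signals, 1 per probe set and array, made by the authors with the Transcriptome Analysis Console per the submitters' processing notes. Its version and normalization and the genome build were not given in the sources used here, and the log2 scale was judged from the values (2.20 to 18.8). Biotinylated cDNA was made from 100 ng of total RNA, per the labels' protocols. The platform annotation gives a single symbol to 17709 of 24351 probe sets and several symbols to 0, and all 17709 matched a RefSeq gene (GRCh38.p14) by Entrez identifier. The probe set of highest mean was kept for each gene (22 set aside), which left 17687 genes, with no filter.

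Groups were compared over all 17687 genes in R 4.3.3 by limma 3.58.1 (a linear model per gene with moderated variances, group as the only term, two-sided, Benjamini-Hochberg adjustment over all genes, threshold 0.05). The number of arrays limits the precision. The members and lists were chosen with earlier results of these data known. Named are all called members, a fixed set of core members, up to 4 genes of smallest p in each list, and exceptions marked as such.

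Same-numbered arrays share a passage in the titles and source names, though not in the descriptions, so they are treated as pairs where pairing is used. Their deviations from the group means correlated across genes at 0.229, 0.162 and 0.133. No such values are given for arrays of unequal number, so these do not decide the pairing. The calls given are from the model without pairing, and the replicate block was run as an alternative. Others were 3 normalizations, removal of a brightness trend, a filter on dim genes, the mean of probe sets, another prior, array weights and leaving out each array.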

Additional observations from a re-analysis of the deposited data

How the results depend on the processing

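None of the 11 called members changed sign under any of the 15 alternatives run, and all 11 kept their call under quantile normalization, median centring, removal of a brightness trend, the mean of probe sets, a trended robust prior, array weights and the replicate block. The filter on dim genes leaves out WNT2B and kept the 10 others. Leaving out 1 array gave 1 to 3 higher and 8 to 10 lower members, 1301 (without VC replicate 2) to 3227 (without 15EN replicate 3) higher and 970 (without VC replicate 2) to 2240 lower genes, and 3 to 8 higher and 9 to 16 lower genes of the other pathway lists; WNT2B and SFRP4 were the members that lost a call, and the 1 higher member stood without VC replicate 2. With the replicate block 3 members were higher and 10 lower, WNT5A and FZD7 being added, and no other member's call changed; of the other pathway genes 8 were higher and 14 lower. Array weights gave 17 lower genes in the other lists (11 in the main analysis). Uncalled members also passed elsewhere. Lower members numbered 10 under quantile normalization, 12 once the brightness trend was removed and 11 with array weights, against 9 in the main analysis. With the filter on dim genes 3 members were higher and 9 lower, without WNT2B. The text above does not give every setting in which an uncalled member passed.

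Scaling to the hybridization controls adds 0.87 to every difference, and the test against 0 then called 27 members higher and 4 lower, 12150 genes higher and 437 lower, and 40 of the other pathway genes higher. All 24 members with a negative difference that were not called turned positive there, from 0.12 (TCF7L1) to 0.87 (FZD5), and all stayed below the median gene at 0.88. Of these, 12 then passed the test against 0 as higher, namely WNT8B (0.61), WNT3A (0.77), WNT2 (0.83), WNT7A (0.82), WNT1 (0.84), FZD10 (0.61), FZD5 (0.87), SFRP2 (0.55), NKD1 (0.61), ZNRF3 (0.77), RNF43 (0.82) and AXIN1 (0.62). These sign changes come from the added constant. Of the called members, WNT2B (-0.16), FZD2, FZD1, LRP5 and DKK2 lost their call there without changing sign, and 6 of 11 kept it. Of the called genes of the other lists, BCL9 (-0.68), CTBP1 (-0.23) and KREMEN1 (-0.21) lost theirs, none with a change of sign, and DAAM1 lost its call once the brightness trend was removed (0.58). Dim levels limit the sizes for WNT2B, FZD2 and SFRP1 and for 17 of 18 ligands. DKK3 was dim on 15EN replicate 1 only, as were LGR4 and KREMEN1 of the other lists, which limits their sizes in part.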

Other observations

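A further set of 12 genes that work beside frizzled receptors was looked up after the fall of FZD4, LRP5 and LRP6 had been seen: Norrin and its helper TSPAN12, the WNT7 co-receptor pair ADGRA2 and RECK, the glypicans GPC1 to GPC6, which hold WNT ligands on heparan sulfate, and the sulfatases SULF1 and SULF2. Of these, 0 were higher and 3 lower by limma (25% called, against 21.4% of all genes). ADGRA2, also named GPR124, was at 7.52, 8.94 and 9.20 on the 15EN arrays (replicates 1 to 3) and 11.82, 11.47 and 12.04 on the VC arrays, without overlap, a difference of -3.22 ± 0.39 (SE, adjusted p = 0.000511), or 9.33-fold lower in 15EN. RECK, a membrane-anchored protein that binds WNT7 ligands and also restrains matrix proteases, was at 8.34, 8.53 and 9.49 on the 15EN arrays (replicates 1 to 3) and 11.02, 10.97 and 11.02 on the VC arrays and fell by 2.22 ± 0.30 (SE, adjusted p = 0.000775). In both genes 15EN replicate 3 was the highest array of its group. The ligands WNT7A and WNT7B themselves were dim on all arrays.

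GPC2, a glypican of developing neurons, fell by 1.42 ± 0.37 (SE, adjusted p = 0.0198) and was dim in 15EN, with 5.66, 6.38 and 7.38 in 15EN against 7.90, 7.83 and 7.96 in VC. Its call was lost without 15EN 1, 15EN 2, VC 1, VC 2 or VC 3 (adjusted p = 0.0579 to 0.0749). Scaling to the hybridization controls also removed it (-0.55, adjusted p = 0.227), while ADGRA2 (-2.35) and RECK (-1.35) kept their calls there. The other 5 glypicans did not pass and differed by -0.85 (GPC4) to 0.60 (GPC6). NDP, the gene of Norrin, was dim on all arrays and differed by 0.12, TSPAN12 by -0.48 ± 0.26 (SE, adjusted p = 0.244), SULF1 by 0.10 and SULF2 by 0.03. These genes were chosen with values in view and are given as a description.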
